A study of Mus musculus and Rattus norvegicus with 79 samples.

Results

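The effect of dexamethasone alone was measured in rat hepatocytes in primary culture, as 3 libraries of cells given the hormone against 3 libraries of cells given vehicle. These are 6 of the 79 samples of a study that mainly covers mouse liver and the action of the glucocorticoid receptor there. They were chosen by treatment, as the dexamethasone and ethanol columns of the rat count table, and ethanol was taken as the vehicle. The hepatocytes came from male Sprague Dawley rats, whose age and number the labels do not give. All cells were plated with 100 nM dexamethasone and 1 nM insulin and then kept overnight in medium with insulin and no added dexamethasone. After 4 h without serum, dexamethasone was given at 500 nM for 2.5 h. The vehicle cells had therefore met the same hormone the day before, so the comparison is a renewed exposure and not a first one. Another 6 libraries, from cells given insulin for 2 h with or without the same dexamethasone, came from the same experiment; the insulin dose of that step is not given in the labels.

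Dexamethasone is a synthetic glucocorticoid. It binds the glucocorticoid receptor, which waits in the cytoplasm with chaperones, moves to the nucleus once bound and attaches to DNA or to other transcription factors there. In liver cells the receptor is known for raising enzymes of glucose production and amino acid breakdown, and for raising or lowering many other genes within hours. Glucocorticoids and insulin are known as opposing hormones in the control of hepatic glucose output.

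The unit of measurement was the read count per rat RefSeq transcript, 1 row per transcript. The table has no gene names, and 0 of its 18269 identifiers matched the gene table used here, which is of mouse. Transcripts are therefore described by level, size of change and behaviour across libraries, and 4 are given by identifier as the largest changes. For the same reason pathway groups and markers of hepatocytes or other liver cells were not examined, so the labelled cell type was not checked against its markers. After removal of 4137 rows that repeat another row, 14132 distinct rows were left and 10843 passed the filter on low counts. Total counts were 11.95 to 20.95 M (megacounts) per vehicle library and 9.8 to 24.22 M per dexamethasone library. Replicates are named A, B and C after the columns. The labels do not say whether they came from separate rats or preparations, so p-values measure the spread between these cultures or dishes, which may be technical. They give no batch or date.

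Libraries of one group lay close together, which sets how small a change could be seen. The coefficient of variation between replicates beyond counting noise was 5.04% over the 12 libraries. Within the vehicle and dexamethasone groups, pairs of replicates differed by 2.31 to 3.59 times the variance that read sampling alone gives (chi-square per row). Without 3 rows described under other observations the range was 1.62 to 3.58. No pair was thus a repeat of 1 library. The shallowest library was dexamethasone replicate C, with 9.8 M counts. Without it 931 transcripts passed, against 1139 with all libraries.

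With dexamethasone alone 612 transcripts rose, 5.64% of the 10843 tested, and 527 fell, 4.86%. Together these are 1139 or 10.5% (edgeR quasi-likelihood test, Benjamini-Hochberg adjusted p under 0.05, 3 libraries a side). The higher transcripts had a median log2 fold change of 0.33, which is 1.26-fold. The lower ones had a median of -0.30. Most changes were therefore small, with the middle 50% of the higher group between 0.22 and 0.60 and that of the lower group between -0.46 and -0.20. The median log2 fold change over all tested transcripts was -0.0008. The scaling of the libraries places the bulk of transcripts near 0, so this median cannot show whether all levels shifted together. In 1123 of the 1139 called transcripts the 3 dexamethasone libraries lay wholly above or wholly below the 3 vehicle libraries. Over all tested transcripts 26.9% showed such a separation. The calls were made on these same libraries, so the separation of called transcripts is no separate evidence for them.

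**Figure D1:**
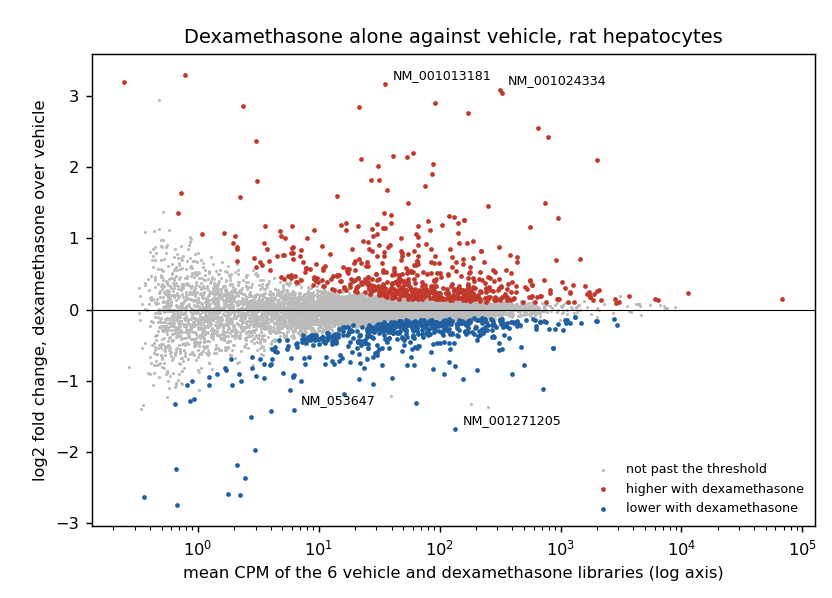
Each point is 1 tested transcript, with its mean level over the 6 libraries in CPM (counts scaled to a common library size, log axis) and its log2 fold change with dexamethasone. The 612 higher transcripts (red) and 527 lower ones (blue) lie on both sides of the zero line, and above 5 CPM the largest rises reach farther from it than the largest falls.

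Rises and falls were about equal in number when small and unequal when large. Below 1.5-fold there were 453 higher and 444 lower transcripts. Between 1.5-fold and 2-fold there were 89 higher and 58 lower. From 2-fold to 4-fold the numbers were 51 and 18, and at 4-fold or more they were 19 and 7. The share of rises thus went from 50.5% in the smallest class to 73.1% in the largest. A test against a fold of 1.5 (edgeR's glmTreat), in place of a test against no change, called 88 higher and 27 lower transcripts.

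**Figure D2:**
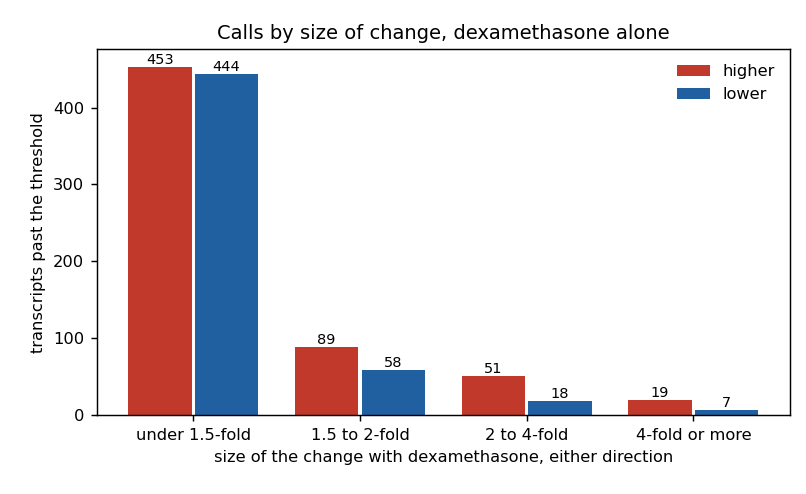
Bars count transcripts past the threshold by size of change, red for higher and blue for lower with dexamethasone. The smallest class holds 453 against 444 and the class of 2-fold to 4-fold holds 51 against 18.

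The share of transcripts called rose with level. Of transcripts with a mean over the 12 libraries of 100 CPM or more 19.2% were called, and of those under 1 CPM 2.15%. The median standard error of the log2 fold change was 0.044 in the first class and 0.38 in the second. The smallest change called was 0.10 on the log2 scale at 100 CPM or more, 0.24 between 5 and 20 CPM, 0.43 between 1 and 5 CPM and 1.00 under 1 CPM. These are the smallest changes that passed and not limits of detection.

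Among transcripts at 5 CPM or more, 56 rose and 7 fell by 2-fold or more. Under 5 CPM 14 rose and 18 fell by as much. With level read in the vehicle libraries alone there were 54 higher and 8 lower at 5 CPM or more and 16 and 17 below it. With DESeq2 in place of edgeR it was 56 and 8 at 5 CPM or more and 11 and 9 below. Of the 25 falls of 2-fold or more 18 were thus in transcripts under 5 CPM, and of the 70 rises 56 were in transcripts above it. The uneven split of large changes was not tested.

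**Figure D3:**
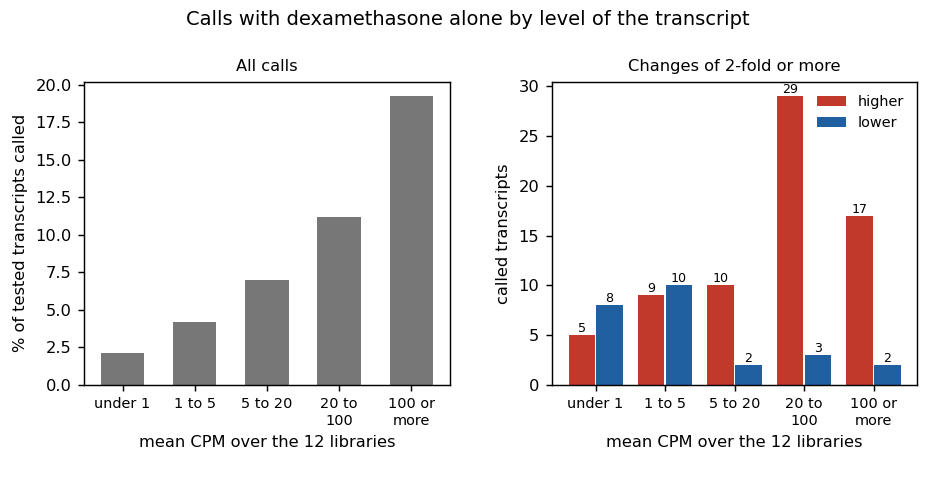
The left panel gives the percentage of tested transcripts called in each class of mean CPM over the 12 libraries, rising from 2.15% to 19.2%. The right panel counts called changes of 2-fold or more, where rises (red) outnumber falls (blue) from 5 CPM upwards and not below.

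Abundant transcripts were called often. Of 222 transcripts at 500 CPM or more in vehicle cells 46 rose and 31 fell, 34.7% in all against 10.5% of all tested transcripts. Most of these changes were small, with 42 of the 46 rises and 28 of the 31 falls under 1.5-fold. The largest rise among them was 2.10 and the largest fall -1.12 on the log2 scale. The 612 higher transcripts together took 18.8% ± 0.0756 of the tested counts in vehicle and 22.2% ± 0.299 in dexamethasone libraries (mean ± SD, n = 3). The 527 lower ones took 8.02% ± 0.0396 and 6.48% ± 0.0835. These shares describe transcripts chosen for their difference between the same libraries, so no test was made on them. Identifiers of non-coding RNA (prefix NR) were called in 3.06% of 98 cases, against 10.6% of 10745 identifiers of messenger RNA (prefix NM). Their median level was 4.08 CPM against 31.7 CPM, and whether level accounts for the gap was not tested.

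The largest rise among transcripts with at least 5 CPM and no overlap of libraries was that of NM_001013181. It stood at 7.67, 6.36 and 7.10 CPM in vehicle replicates A, B and C and at 62.0, 62.1 and 67.5 CPM with dexamethasone. The rule admits only transcripts without overlap, so the separation itself is no finding. The range within each group was small beside the gap. The rise was 8.995-fold, or 3.17 ± 0.08 (log2 fold change ± SE, edgeR adjusted p = 4.94e-18).

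NM_001024334 rose almost as much from a higher level. Its vehicle libraries held 66.7, 62.8 and 69.5 CPM and its dexamethasone libraries 544, 578 and 577 CPM. The groups were again far apart, and the fold was 8.52 (3.09 ± 0.056, edgeR adjusted p = 1.26e-20). In every library its counts lay within 9.28% of those of another row, so the 2 rows may share reads, which was not tested.

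The largest falls under the same rule were smaller than these rises. NM_001271205 was at 194, 208 and 215 CPM in vehicle and at 61.5, 65.0 and 66.3 CPM in dexamethasone libraries. Its level with dexamethasone was 0.311 times the vehicle level (-1.68 ± 0.059, edgeR adjusted p = 2.1e-15). NM_053647 was at 9.02, 9.02 and 9.22 CPM in vehicle and at 3.29, 3.8 and 3.05 CPM with dexamethasone. That is 0.378 times the vehicle level (-1.40 ± 0.123, edgeR adjusted p = 2.04e-08). It rests on 28 to 75 counts per dexamethasone library, and its error is accordingly the widest of these 4.

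**Figure D4:**
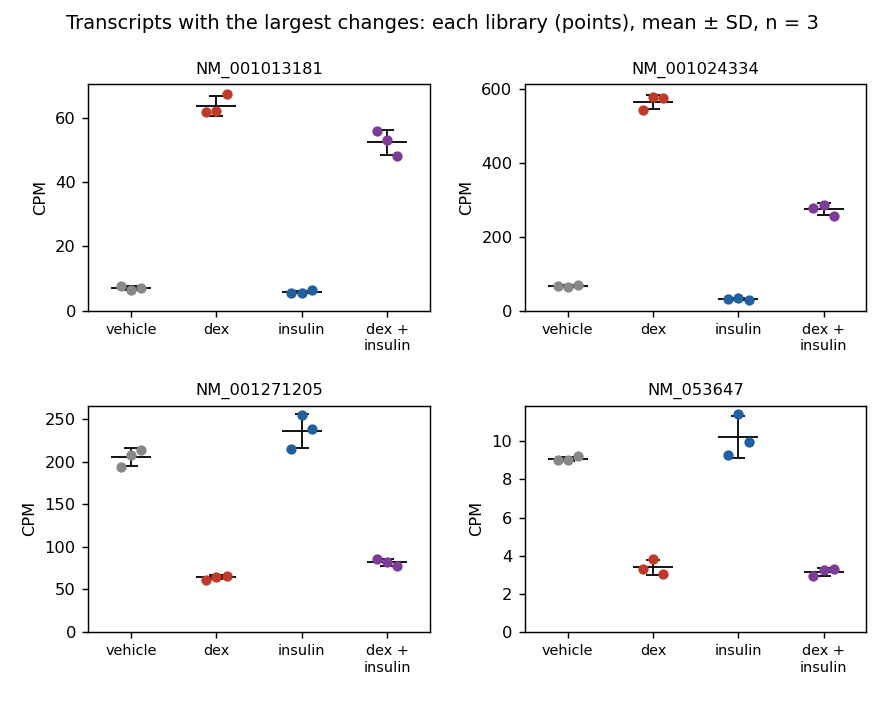
Each panel plots 1 transcript in CPM (axis from 0) in the 12 libraries, with 1 point per library and the mean ± SD of 3. The dexamethasone points of NM_001013181 and NM_001024334 sit far above the vehicle points, those of NM_001271205 and NM_053647 far below, and the same order is seen between insulin alone and both hormones.

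The 10 largest rises under this rule, of 576 that met it, spanned 2.16 to 3.17 on the log2 scale, with standard errors of 0.039 to 0.103. In vehicle cells these transcripts stood at 5.12 to 247 CPM (median 32.6) and with dexamethasone at 37.6 to 1331 CPM (median 229). The 10 largest falls, of 480, spanned -0.97 to -1.68, with standard errors of 0.048 to 0.161. Their levels went from 7.94 to 984 CPM in vehicle to 3.38 to 453 CPM with dexamethasone. No called transcript was without counts in all 3 libraries of either group, so the calls are changes of level and not appearances or losses. Among all distinct rows, tested or not, 25 had no count in the vehicle libraries and at least 1 in each dexamethasone library. Their counts summed to at most 10 over the 3 dexamethasone libraries. The reverse was seen in 14 rows, with counts that summed to at most 6 over the 3 vehicle libraries.

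The 6 libraries with insulin present hold a second comparison of dexamethasone, both hormones against insulin, which shares no library with the first. In it 2145 transcripts passed, 19.8% of those tested. Replicate A of both hormones differed from replicates B and C by 20.38 and 21.35 times sampling variance, while B and C differed by 3.42 times. Most of this came from 3 rows described under other observations. Without those rows the values were 3.52 and 5.95 times, and insulin replicates A and B differed by 5.64 times. Without this library 407 of the 612 higher and 382 of the 527 lower transcripts passed again in the same direction, against 432 and 390 with it. The interaction described further on then passed for 81 transcripts, against 72. How many passed again was not counted without insulin replicate B or without replicate C of both hormones. Omitting either of these lowered the calls of this comparison, to 1293 and 1383.

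The comparison asks whether the transcripts called with dexamethasone alone moved again. Of the 612 higher transcripts 432 rose with insulin present too, 70.6%, where 8.78% of all tested transcripts did. Of the 527 lower ones 390 fell, 74.0%, where 11% of all did. The sign alone agreed in 579 of 612 and 509 of 527, against 51.9% of all transcripts above 0 and 48.1% below. The other 180 higher and 137 lower transcripts did not pass in the same direction, which does not show that they were unchanged.

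The size of the change with insulin was somewhat smaller for the higher transcripts. Their median was 0.33 alone and 0.25 with insulin, and for the lower ones it was -0.30 and -0.28. Choosing transcripts by the first comparison favours those whose change was overestimated there, so a smaller second value is no finding by itself. Across the 1139 transcripts the 2 log2 fold changes had a Pearson r of 0.92 (Spearman 0.91). Over all 10843 tested transcripts it was 0.61 (Spearman 0.48), and the 1139 were chosen by the first of the 2 changes. These values are descriptions across transcripts, which are not independent replicates and come from 1 experiment and 1 fit. Larger changes recurred more often among the higher transcripts: 64.5% of rises under 1.5-fold passed again, 87.6% of those from 1.5-fold to 2-fold and 88.6% of those of 2-fold or more. For falls the shares were 73.0%, 81.0% and 76.0%.

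**Figure D5:**
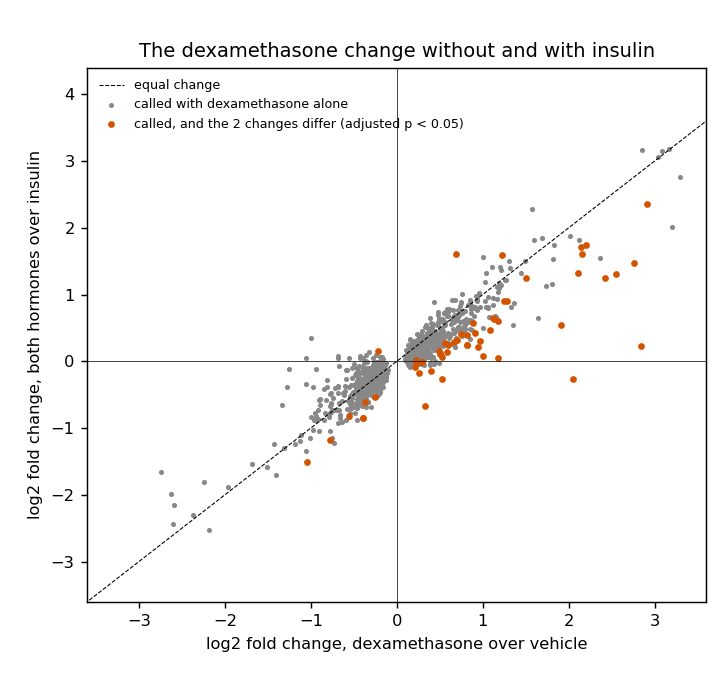
Each point is 1 of the 1139 transcripts called with dexamethasone alone, with its log2 fold change without insulin on the x axis and with insulin on the y axis. Points follow the dashed line of equal change (Pearson r 0.92, against 0.61 over all tested transcripts). The orange points, where the test of the difference passed, lie mostly below this line on the right.

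The 4 named transcripts changed in the same direction with insulin present. NM_001013181 was at 5.47, 5.58 and 6.26 CPM with insulin and at 55.9, 53.3 and 48.3 CPM with both hormones (3.18 ± 0.082, edgeR adjusted p = 2.15e-17). NM_001024334 was at 30.2, 33.8 and 28.9 CPM with insulin and at 279, 287 and 256 CPM with both. Its fold was 8.85 with insulin against 8.52 without, though both levels were lower than in the cells without insulin. Insulin alone lowered it by -1.10 ± 0.06 against vehicle (edgeR adjusted p = 2.04e-11), a comparison that uses the same vehicle libraries. For NM_001013181 the change with insulin alone was -0.29 ± 0.116 (edgeR adjusted p = 0.0959).

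NM_001271205 was at 215, 256 and 239 CPM with insulin and at 86.0, 81.7 and 77.2 CPM with both hormones (-1.53 ± 0.057, edgeR adjusted p = 7.66e-15). NM_053647 was at 9.27, 11.5 and 9.94 CPM and at 2.92, 3.25 and 3.30 CPM (-1.70 ± 0.12, edgeR adjusted p = 6.13e-10). The difference between the 2 dexamethasone changes was tested as an interaction. It was 0.01 ± 0.127 for NM_001013181, 0.05 ± 0.078 for NM_001024334, 0.15 ± 0.082 for NM_001271205 and -0.30 ± 0.18 for NM_053647, none past the threshold (edgeR adjusted p = 0.529 to 0.981).

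Other transcripts did respond differently with insulin present. Over all tested transcripts the interaction passed for 72, or 0.664%. In 63 of them, 0.581% of those tested, the change was smaller or more negative with insulin, and in 9, 0.083%, it was larger or less negative. Among the 612 higher transcripts it passed for 49, and in 47 of these the rise was smaller with insulin. Among the 19 that rose 4-fold or more it passed for 10, all with a smaller rise. Of the 527 lower transcripts it passed for 8, and in 7 of these the fall was larger with insulin. The interaction uses the libraries that chose the transcripts, so these counts are no independent evidence of a direction.

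The largest rises show the range. In the 10 largest, the log2 fold change with insulin present ran from 0.22 to 3.18 (median 1.68), 9 of the 10 passed again, and the interaction passed for 7 of the 10, each time with a smaller rise. In the 10 largest falls it ran from -0.38 to -1.70 (median -1.21), and 10 of the 10 passed again. The higher transcripts as a set took 18.5% ± 0.316 of the tested counts with insulin and 20.9% ± 0.474 with both hormones (n = 3 each), and the lower ones took 8.67% ± 0.193 and 7.02% ± 0.137. The 3 libraries with both hormones did not overlap the 3 with insulin in either case. An exact permutation test gave p = 0.1 for each set. That is the smallest p possible with 3 against 3 libraries, so this test could not pass 0.05.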

How the data were processed

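Polyadenylated RNA of 12 rat hepatocyte cultures, 4 groups of 3, was sequenced. The authors deposited raw read counts per RefSeq transcript, 1 column per library. STAR, HOMER, DESeq2 and, among builds, rn5 are named without roles or versions, per the submitters' processing notes. Whether strand was used in counting is not stated in those sources, and isoforms and near-identical genes may share reads across rows. Of the deposited counts 3.60% to 3.88% per library lay in rows that repeat another row, which were dropped.

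The test was edgeR's (4.0.16, under R 4.3.3) quasi-likelihood test in a single fit of the 12 libraries, after filtering with filterByExpr over the groups and scaling by TMM. Standard errors are the size of the log2 fold change over the square root of F. CPM were computed by edgeR on TMM-scaled library sizes. The procedure was tested on simulated data. DESeq2 1.42.0, RLE factors, other filters, fewer libraries, a replicate block and a fold threshold were alternatives. Identifiers were named by rule: the 2 largest changes up and 2 down past the threshold, with at least 5 CPM over the 6 libraries and no overlap. The members and rules were chosen with earlier results of these data known. Fixed gene lists could not be used without gene names.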

Additional observations from a re-analysis of the deposited data

Results flagged for a closer look

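The change with dexamethasone differed between cells without and with insulin for 72 transcripts by the interaction test (edgeR quasi-likelihood, adjusted p under 0.05), 0.664% of those tested. At an unadjusted p under 0.05 there were 1141, and DESeq2 called 89. In 63 of the 72 the change was smaller or more negative with insulin.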

How the results depend on the processing

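Leaving out 1 library gave 856 to 982 calls for dexamethasone alone, 1293 to 2414 for both hormones against insulin, 45 to 109 for the difference between these changes and 1167 to 1633 for insulin against vehicle. The number for both hormones against insulin fell from 2145 to 1293 without insulin replicate B and to 1383 without replicate C of both hormones. The difference went from 72 to 45, 47 and 45 without vehicle replicate A, vehicle replicate B and insulin replicate C, and to 109 without insulin replicate A. Insulin against vehicle went from 1791 to 1167 without insulin replicate C. The cause was not tested. The test against a fold of 1.5 called 115 transcripts with dexamethasone alone, by its construction fewer. DESeq2 called 985, of which 974 were among the 1139, all in the same direction, and a fit of the 6 libraries alone called 1338, of which 1130 were. Every alternative kept the direction and the call of the 4 named transcripts with dexamethasone alone (64 of 64 values, adjusted p up to 2.02e-05). Keeping 1 row of each set within 2% of each other in every library, an alternative chosen after seeing the data, left 1100 calls. Same-lettered vehicle and dexamethasone libraries did not deviate together (correlations 0.10, -0.04 and 0.02), and with the letter as a replicate block 1119 transcripts passed.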

Other observations

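Not all large differences were past the threshold. Under the same level and size, at least 5 CPM and 2-fold, 3 rows were not called, NR_046239, NM_001025002 and NM_001047955, singled out after their values were seen. NM_001025002 was at 674, 159 and 245 CPM in vehicle replicates A, B and C and at 141, 145 and 129 CPM with dexamethasone (log2 fold change -1.37 ± 0.83, edgeR adjusted p = 0.389). Vehicle replicate A stood above every other vehicle and dexamethasone library, and the 3 rows did so together, with NR_046239 at 491 and NM_001047955 at 107 CPM there. In replicate A of both hormones NM_001025002 reached 6114 CPM, 33.0 times the mean of replicates B and C. NR_046239 and NM_001047955 were 32.6 and 42.03 times that mean in the same library.

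The 3 rows held 1.15% of the tested counts in that library and 0.0211% to 0.128% in the other 11. Without them, replicate A of both hormones differed from B and C by 3.52 and 5.95 times sampling variance, against 20.38 and 21.35 times with them. All 3 rows passed the threshold as higher with both hormones than with insulin (edgeR adjusted p = 0.00931 to 0.0122), on this 1 library. Leaving the rows out, an alternative chosen after seeing the data, gave 1153 calls with dexamethasone alone and 77 for the interaction. What RNA they represent was not examined.

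With insulin present 2145 transcripts passed for dexamethasone, and without it 1139. With each comparison fitted on its own 6 libraries the counts were 1708 and 1338, and without insulin replicate B the first was 1293. In the fit of 12 libraries 825 were called in both settings, 72.4% of the calls without insulin and 38.5% of those with it. The interaction passed for 40 of these 825, or 4.85%, for 17 of the 314 called only without insulin, or 5.41%, and for 15 of the 1320 called only with it, where 0.664% of all tested transcripts passed. These counts share libraries with the calls and were not tested against each other.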
